A study of Mus musculus with 22 samples.

Results

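The Fc gamma receptors bind the constant region of IgG, and 4 of them together with their shared signalling adaptor were followed in pancreatic CD8α- dendritic cells (DCs) of NOD and C57BL/6 mice. The 5 genes are Fcgr2b, Fcgr1, Fcgr3, Fcgr4 and Fcer1g, of 18193 genes that a probe set of the arrays names alone. They were measured by 10 of 45037 probe sets, and all 10 are described here, with no filter on low values. These genes and probe sets were chosen with results from the same 6 groups of arrays in view, so their values are a description and carry no p-value. Tests are given only for other genes of the Fc receptor pathway.

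Each array held RNA from a pool of 10 pancreases of female mice 5 weeks old, either NOD/ShiLtJ, a strain that develops autoimmune diabetes, or C57BL/6J, which does not. CD11c+ CD8α- cells were sorted by flow cytometry from CD45+ cells, and were lysed at once (steady state) or cultured for 18 h with PBS or with LPS, the bacterial lipopolysaccharide that activates toll-like receptor 4. The groups were NOD steady state (n = 3), C57BL/6 steady state (n = 4), NOD PBS (n = 4), C57BL/6 PBS (n = 4), NOD LPS (n = 4) and C57BL/6 LPS (n = 3), 22 arrays in all. Values are log2 expression per probe set, on which a step of 1 is a 2-fold change, and the medians of the arrays lay between 7.633 and 7.684. Each pool is 1 sample of a sorted population, so fewer cells of a type and less RNA per cell cannot be told apart. RNA levels of the sort markers follow as a description. Itgax, which encodes CD11c, averaged 10.89 in NOD and 11.32 in C57BL/6 at steady state and lay above the lower quartile of every array. Cd8a averaged 7.78 in NOD and 7.56 in C57BL/6 at steady state and lay below the lower quartile on 0 of 22 arrays. With PBS Cd8a averaged 8.45 in NOD and 9.24 in C57BL/6, and Itgax 8.93 and 9.03. With LPS Cd8a averaged 8.25 in NOD and 8.80 in C57BL/6, and Itgax 8.34 and 8.46. These RNA levels do not show that Cd8a was absent. Macrophage transcripts were also bright, with a mean over 15 of 16 listed markers of 12.60 to 12.82 in NOD and 12.80 to 12.97 in C57BL/6 steady state arrays.

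Fcgr1, Fcgr3 and Fcgr4 encode activating receptors (CD64, CD16 and FcγRIV) that need the Fc receptor gamma chain, the product of Fcer1g, which carries the ITAM signalling motif. Fcgr2b encodes FcγRIIB, the inhibitory receptor, whose ITIM motif recruits the phosphatase SHIP. On DCs the activating receptors take up immune complexes and promote maturation, and FcγRIIB sets a threshold against it. The NOD strain is known to carry an Fcgr1 allele with a shortened cytoplasmic tail and an Fcgr2b allele with a deletion in its promoter. On the mouse reference genome Fcgr2b, Fcgr4, Fcgr3 and Fcer1g lie on chromosome 1, in this order, within a run of 11 protein-coding genes, and Fcgr1 lies on chromosome 3.

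All 5 genes matched a promoter entry of RefSeq (build GRCm38.p6, a C57BL/6J genome), and the 250 bases before the listed start are shown for the 3 genes whose levels separated the strains or moved apart in culture. NOD sequence was not used here. Fcgr2b is at chr1:170976072-170976321 on the minus strand, Fcgr4 at chr1:171018676-171018925 on the plus strand and Fcgr1 at chr3:96293970-96294219 on the minus strand. Capitals mark matches to GAGGAA or its reverse complement TTCCTC, a core of sites bound by the myeloid factor PU.1, searched on both strands.
Fcgr2b: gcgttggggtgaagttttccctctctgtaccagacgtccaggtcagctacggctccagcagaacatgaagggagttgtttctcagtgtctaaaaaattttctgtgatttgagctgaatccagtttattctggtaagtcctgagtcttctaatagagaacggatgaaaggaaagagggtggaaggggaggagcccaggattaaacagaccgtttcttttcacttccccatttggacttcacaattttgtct
Fcgr4: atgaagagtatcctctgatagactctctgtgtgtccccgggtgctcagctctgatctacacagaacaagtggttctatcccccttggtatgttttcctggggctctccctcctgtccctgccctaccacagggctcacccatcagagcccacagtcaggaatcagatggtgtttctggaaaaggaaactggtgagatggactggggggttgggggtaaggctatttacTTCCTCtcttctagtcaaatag
Fcgr1: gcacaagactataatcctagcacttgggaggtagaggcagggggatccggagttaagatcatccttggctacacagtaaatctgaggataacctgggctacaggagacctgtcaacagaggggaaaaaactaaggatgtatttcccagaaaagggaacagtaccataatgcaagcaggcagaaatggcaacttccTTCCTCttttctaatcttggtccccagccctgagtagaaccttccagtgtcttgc
Fcgr1 held 1 PU.1 core match, 55 to 50 bases before the start, while Fcgr4 held 1 PU.1 core match, 22 to 17 bases before its start. Fcgr3, whose window is not shown, also held 1, 6 to 1 bases before its start. The core of the interferon response element (ISRE), also searched on both strands, matched 1 time, in Fcgr4, 73 to 64 bases before the start, and is left in lower case. Neither motif matched in the Fcgr2b window. Over 32536 different windows of the same length, 23.4% held the PU.1 core and 2.98% the interferon response core. No match overlapped another. A match of letters is a description and no sign of binding, and for the window without one it says only that these letters are not in it.

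Fcgr2b, the inhibitory receptor gene, was lower in NOD than in C57BL/6 CD8α- DCs at steady state and more so in PBS culture, and in LPS culture the strains overlapped. By its brightest probe set (1435477_s_at) it lay at 13.15, 12.90 and 13.11 in NOD steady state arrays, against 13.66, 13.56, 13.52 and 13.60 in C57BL/6 steady state arrays. After culture with PBS the values were 11.32, 11.09, 11.67 and 11.00 in NOD, against 12.49, 12.41, 12.66 and 12.59 in C57BL/6. With LPS they were 13.10, 12.68, 13.15 and 13.08 in NOD, against 12.95, 13.03 and 13.05 in C57BL/6. Every NOD array was thus below every C57BL/6 array at steady state and with PBS, while the LPS arrays of NOD lay on both sides of those of C57BL/6. The log2 difference between NOD and C57BL/6 was −0.53 (SE 0.099) at steady state, −1.27 (SE 0.15) with PBS, 2.41-fold lower in NOD, and −0.01 (SE 0.14) with LPS.

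The response of Fcgr2b to LPS was larger in NOD. LPS over PBS gave a log2 difference of 1.73 (SE 0.16, 3.32-fold higher) in NOD and 0.48 (SE 0.12, 1.39-fold higher) in C57BL/6, with no overlap between LPS and PBS arrays in either strain. These strain responses differed by 1.26 (SE 0.21), and by 1.17 to 1.39 when any 1 array was left out. PBS culture against steady state gave −1.79 (SE 0.16) in NOD and −1.05 (SE 0.099) in C57BL/6, so Fcgr2b was lower in PBS culture in both strains. The NOD PBS arrays thus held the lowest Fcgr2b values of all 6 groups, and the C57BL/6 steady state arrays the highest.

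The order of the group means from high to low was C57BL/6 steady state, NOD steady state, C57BL/6 LPS, NOD LPS, C57BL/6 PBS and NOD PBS. The arrays of NOD steady state (12.90 to 13.15) overlapped those of C57BL/6 LPS and NOD LPS, so these 3 groups could not be ordered beyond their spread. NOD LPS replicate 2 was the low value of its group, at 12.68, and without it the strain difference with LPS was 0.10.

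Fcgr2b was read by 3 further bright probe sets. Over the 22 arrays, which share groups and normalization, the 4 sets correlated with one another at r = 0.977 to 0.994, so they count as repeated readings of 1 gene. Across the 4 sets the log2 difference between NOD and C57BL/6 ranged from −0.81 to −0.53 at steady state, from −1.31 to −1.24 with PBS and from −0.01 to 0.24 with LPS. LPS over PBS ranged from 1.73 to 2.03 in NOD and from 0.45 to 0.57 in C57BL/6. The set 1435476_a_at gave the largest steady state difference, with 12.54, 12.12 and 12.29 in NOD and 13.17, 13.11, 13.06 and 13.17 in C57BL/6. A probe set with the suffix _s_at or _x_at can share probes with other transcripts. This holds for the brightest set, 1435477_s_at, and for 1455332_x_at. The fifth set, 1447622_at, lay between 3.05 and 3.58 on all 22 arrays, below the lower quartile of each, and did not follow the others (r = −0.262 to −0.205).

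B cells also carry FcγRIIB, and their transcripts moved with Fcgr2b in part. The mean level of 8 measured B cell markers (of 9 listed) was 8.40 to 9.34 in NOD PBS and 9.38 to 10.19 in C57BL/6 PBS arrays, and 4 of the 8 were lower in NOD there by limma. In LPS culture the B cell mean was 8.68 to 10.16 in NOD and 9.70 to 10.47 in C57BL/6, with 2 of 8 lower, and at steady state 8.45 to 9.57 in NOD and 9.0 to 9.53 in C57BL/6, with 1 of 8 lower. None of these 8 markers fell below the lower quartile of an array. For LPS over PBS no B cell marker passed the test in either strain. Their median log2 difference was 0.43 in NOD and 0.51 in C57BL/6, the same direction as Fcgr2b. The part of B cells in the Fcgr2b difference was not tested. Transcripts of CD8α- DCs themselves averaged 11.37 to 11.42 in NOD and 11.32 to 11.42 in C57BL/6 at steady state, 9.84 to 9.98 in NOD and 10.04 to 10.12 in C57BL/6 with PBS, and 9.63 to 9.72 in NOD and 9.87 to 9.95 in C57BL/6 with LPS, over 15 genes, of which 4, 4 and 5 were lower and 1, 2 and 0 higher in NOD in these conditions. Neutrophils also carry FcγRIII and FcγRIV, and 8 neutrophil markers averaged 7.46 to 8.19 in NOD and 8.12 to 9.09 in C57BL/6 with PBS, with 2 of 8 lower. At steady state they averaged 7.58 to 7.92 in NOD and 7.77 to 8.06 in C57BL/6, with 3 lower and 2 higher. With LPS they averaged 7.86 to 8.10 in NOD and 8.74 to 9.22 in C57BL/6, with 4 of 8 lower and 1 higher. Mast cells and basophils carry Fcer1g with the IgE receptor, and 9 of their markers (of 10 listed) averaged 6.36 to 6.48 in NOD and 6.72 to 7.08 in C57BL/6 at steady state, with 3 of 9 lower in NOD. They averaged 6.74 to 6.94 in NOD and 6.69 to 7.64 in C57BL/6 with PBS, with 1 lower and 1 higher, and 6.78 to 7.0 in NOD and 7.13 to 7.54 in C57BL/6 with LPS, with 3 lower. Of these, Fcer1a, the alpha chain of the IgE receptor, lay below the lower quartile on 21 of 22 arrays and the chymase gene Cma1 on 0. The part of these cells in the receptor differences was not tested. Of 7 plasmacytoid DC markers, 3 were higher and 1 lower in NOD at steady state, where 6.87% of all genes were higher and 8.35% lower. Their mean was 10.60 to 10.68 in NOD and 10.20 to 10.40 in C57BL/6 steady state arrays. With PBS and with LPS 0 were higher and 1 lower. Of 6 T cell markers, 2 were higher and 1 lower at steady state, and with PBS and with LPS 0 were higher and 1 lower. The part of these 2 cell types was not tested.

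**Figure D1:**
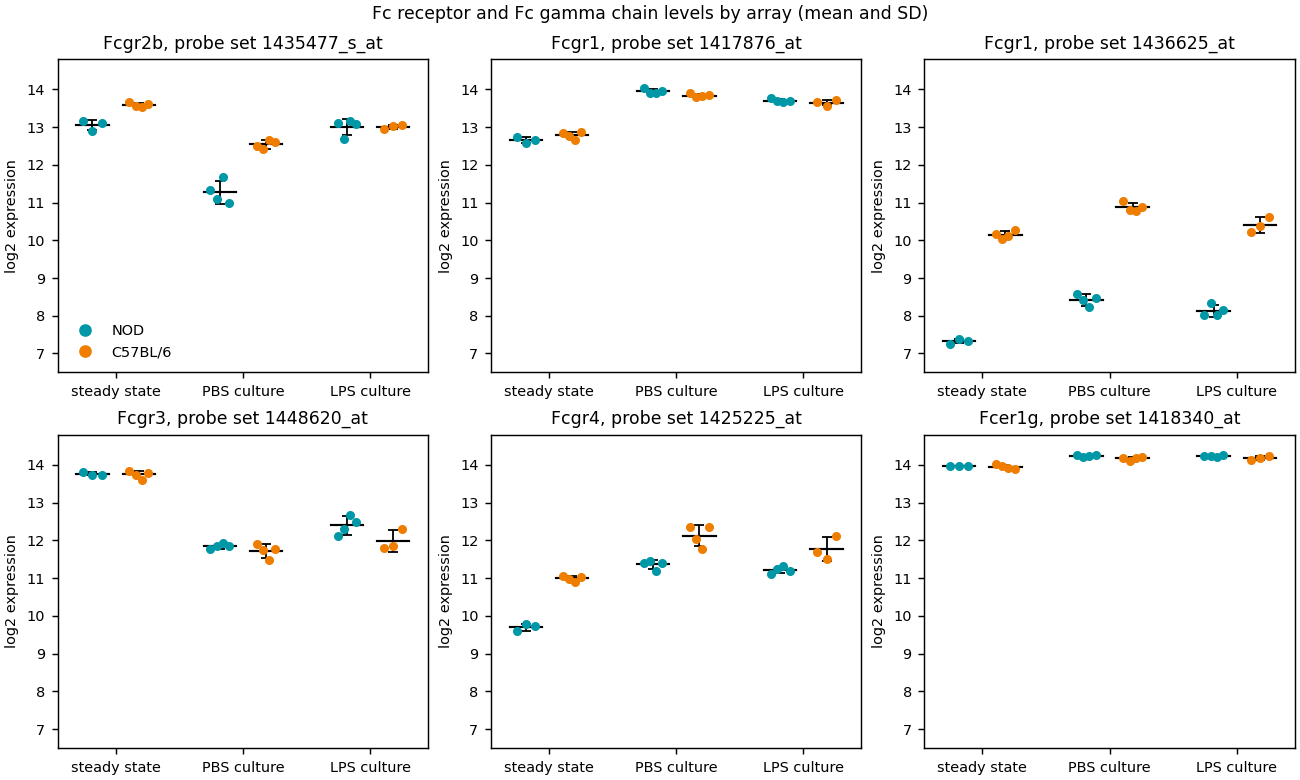
Log2 expression of Fcgr2b, Fcgr1 (2 probe sets), Fcgr3, Fcgr4 and Fcer1g on each array, with the mean (line) and SD (bar) of NOD (left in each pair) and C57BL/6 (right) at steady state, with PBS and with LPS. Fcgr2b of NOD lies at 11.00 to 11.67 with PBS and meets the C57BL/6 arrays with LPS, Fcgr1 by 1436625_at is far lower in NOD throughout, and Fcer1g stays between 13.88 and 14.26.

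The high affinity receptor gene Fcgr1 was read by 2 probe sets, which gave different pictures of the strains. The brighter one, 1417876_at, lay at 12.73, 12.57 and 12.66 in NOD steady state arrays and at 12.83, 12.77, 12.66 and 12.87 in C57BL/6 steady state arrays, with a log2 difference of −0.13 (SE 0.096). With PBS it lay at 14.04, 13.91, 13.90 and 13.95 in NOD and at 13.89, 13.79, 13.82 and 13.84 in C57BL/6, a log2 difference of 0.11 (SE 0.099). With LPS it lay at 13.76, 13.70, 13.65 and 13.70 in NOD and at 13.65, 13.57 and 13.72 in C57BL/6, a difference of 0.06 (SE 0.11). The strains overlapped at steady state and with LPS, and with PBS every NOD array was slightly above every C57BL/6 array. Fcgr1 was higher after culture in both strains by this set, by 1.30 (SE 0.11, 2.46-fold) in NOD and by 1.05 (SE 0.095, 2.07-fold) in C57BL/6. LPS over PBS was −0.25 (SE 0.093) in NOD and −0.19 (SE 0.11) in C57BL/6.

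The second Fcgr1 set, 1436625_at, separated the strains in every condition. It lay at 7.26, 7.38 and 7.34 in NOD and at 10.17, 10.04, 10.11 and 10.27 in C57BL/6 at steady state. PBS arrays lay at 8.58, 8.41, 8.22 and 8.48 in NOD, against 11.05, 10.79, 10.77 and 10.87 in C57BL/6. LPS arrays lay at 8.01, 8.35, 8.03 and 8.15 in NOD, against 10.22, 10.38 and 10.62 in C57BL/6. The groups of the strains stood far apart in each condition. The log2 differences were −2.82 (SE 0.096) at steady state, −2.45 (SE 0.12) with PBS and −2.27 (SE 0.14) with LPS, so NOD was 7.06-fold, 5.46-fold and 4.83-fold lower by this reading. It shared the response to culture with the other set, at 1.09 (SE 0.12) in NOD and 0.72 (SE 0.11) in C57BL/6. The value of 1417876_at minus that of 1436625_at, set to 0 at the C57BL/6 steady state mean, was at steady state 2.69 ± 0.14 in NOD (SD, n = 3), against 0.00 ± 0.079 in C57BL/6 (SD, n = 4). This gap was 2.89 ± 0.10 in NOD and 0.33 ± 0.087 in C57BL/6 with PBS (SD, n = 4 each), and with LPS 2.93 ± 0.16 in NOD (SD, n = 4), against 0.60 ± 0.17 in C57BL/6 (SD, n = 3). The 2 readings of this gene therefore disagree on the strains in every condition. The amount was not fixed, since the gap in C57BL/6 was larger with PBS and largest with LPS, and changed less in NOD. Which stretch of the transcript each set reads, and whether the alleles differ under the probes, was not tested.

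Fcgr4, the activating receptor for IgG2a and IgG2b, was lower in NOD than in C57BL/6 in all 3 conditions by its only probe set, 1425225_at. Whether the alleles differ under these probes was not tested. At steady state it lay at 9.60, 9.78 and 9.73 in NOD and at 11.06, 10.98, 10.90 and 11.02 in C57BL/6. With PBS it lay at 11.40, 11.45, 11.19 and 11.41 in NOD and at 12.36, 12.03, 11.76 and 12.35 in C57BL/6. With LPS it lay at 11.10, 11.25, 11.31 and 11.20 in NOD and at 11.68, 11.50 and 12.12 in C57BL/6. The groups of the strains did not overlap in any condition. The log2 differences were −1.29 (SE 0.094) at steady state, −0.76 (SE 0.15) with PBS and −0.56 (SE 0.15) with LPS, and the last was −0.38 without C57BL/6 LPS replicate 4. Fcgr4 was higher after PBS culture by 1.66 (SE 0.12) in NOD and 1.13 (SE 0.14) in C57BL/6, while LPS over PBS was −0.15 (SE 0.10) in NOD and −0.36 (SE 0.20) in C57BL/6, with overlap in both. The gap between the strains was thus widest at steady state for Fcgr4 and with PBS for Fcgr2b. Monocyte transcripts were lower in NOD beside the Fcgr4 difference at steady state, with 5 of 7 markers lower and a mean of 10.61 to 10.83 in NOD and 11.30 to 11.37 in C57BL/6. With PBS 1 of the 7 was lower and 1 higher, with LPS 2 were lower and 1 higher, and their part in the result was not tested.

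Fcgr3 and Fcer1g, in contrast, differed little between the strains. Fcgr3, the low affinity activating receptor, lay at 13.81, 13.74 and 13.74 in NOD and 13.85, 13.74, 13.61 and 13.79 in C57BL/6 at steady state, and its log2 difference was 0.01 (SE 0.095). It was lower in PBS culture, at 11.77, 11.85, 11.93 and 11.84 in NOD and 11.91, 11.74, 11.48 and 11.77 in C57BL/6, with log2 differences from steady state of −1.92 (SE 0.11) in NOD and −2.02 (SE 0.12) in C57BL/6. Fcgr1 and Fcgr4 were higher in these PBS arrays than at steady state, the opposite direction. With LPS Fcgr3 lay at 12.11, 12.31, 12.68 and 12.48 in NOD and at 11.80, 11.84 and 12.31 in C57BL/6. LPS over PBS was 0.55 (SE 0.13) in NOD, without overlap, and 0.25 (SE 0.16) in C57BL/6, with overlap, and the C57BL/6 value was 0.09 without LPS replicate 4. The strain difference with LPS was 0.41 (SE 0.17) and the arrays overlapped.

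Fcer1g, the adaptor, was bright on all arrays. It lay at 13.98, 13.97 and 13.97 in NOD and 14.01, 13.97, 13.91 and 13.88 in C57BL/6 at steady state, at 14.20 to 14.26 in NOD and 14.11 to 14.22 in C57BL/6 with PBS, and at 14.20 to 14.25 in NOD and 14.14 to 14.23 in C57BL/6 with LPS. Its strain differences were 0.03 (SE 0.087), 0.06 (SE 0.097) and 0.04 (SE 0.10) at steady state, with PBS and with LPS. PBS culture over steady state was 0.26 (SE 0.11) in NOD and 0.24 (SE 0.092) in C57BL/6. The adaptor level was therefore close to constant while the receptors it serves, each by its brightest probe set, shifted by more than 1 on the log2 scale in culture. At this brightness a log2 scale can be compressed, which was not tested.

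**Figure D2:**
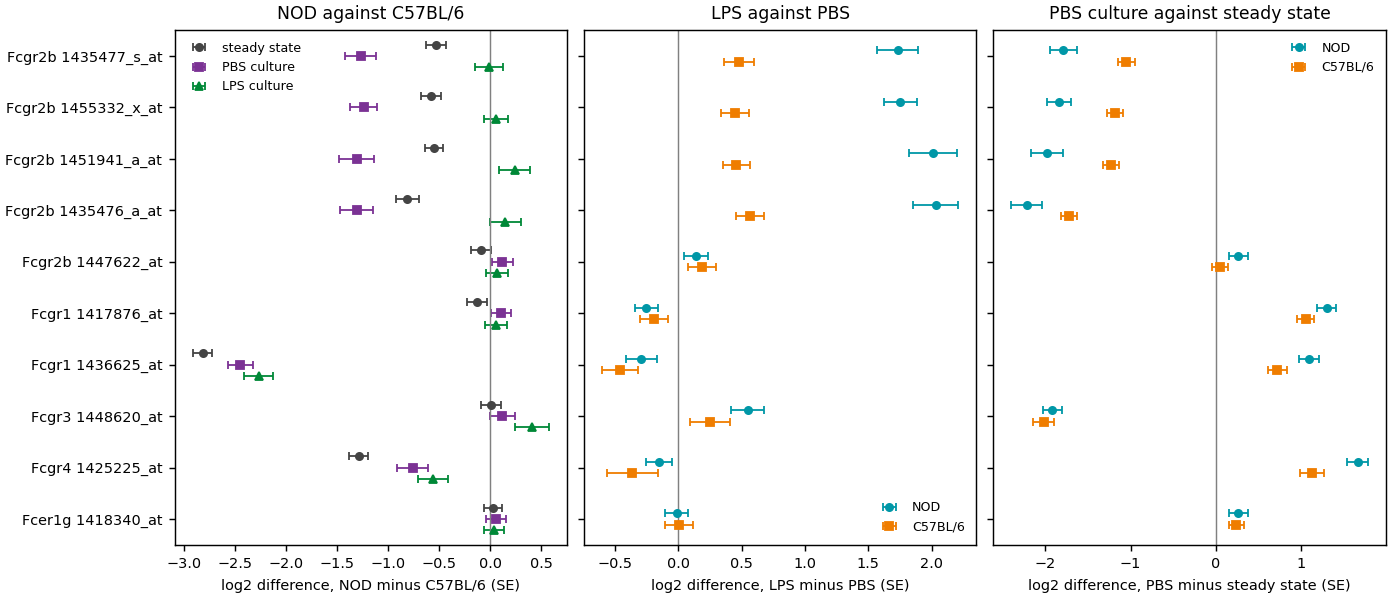
Log2 differences with their moderated SE (bars) for the 10 probe sets, for NOD minus C57BL/6 (left, by condition), LPS minus PBS (middle, by strain) and PBS culture minus steady state (right, by strain). The 4 bright Fcgr2b sets lie together, at −1.31 to −1.24 for the strains with PBS and at 1.73 to 2.03 for LPS in NOD, and the 2 Fcgr1 sets part most in the strain comparison.

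Set beside all probe sets, the counts past the threshold used for the pathway genes (limma, adjusted p under 0.1) were as follows, and nothing is read from them, since values of these comparisons chose the genes. Between NOD and C57BL/6, 6 of 10 passed at steady state, beside 15.0% of all probe sets, 6 of 10 with PBS, beside 9.87%, and 2 of 10 with LPS, beside 9.91%. For LPS over PBS, 5 of 10 passed in NOD, beside 3.76%, and 1 of 10 in C57BL/6, beside 1.48%. For PBS culture against steady state it was 10 of 10 in NOD, beside 67.1%, and 9 of 10 in C57BL/6, beside 72.7%. In the test of whether the LPS response differed between the strains, 4 of 10 passed, the 4 bright Fcgr2b sets, beside 0.0244% of all probe sets, that is 11 of 45037. That count lay between 1 and 4 when 1 array at a time was left out. In the test of whether the response to culture differed between the strains, 3 of 10 passed, all of Fcgr2b, beside 6.80%, and 0 of 10 with replicate number as a block. The block fit rests on fewer arrays, those whose number both conditions share in a strain.

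The balance of activating to inhibitory transcripts was taken per array as the mean log2 value of Fcgr1 (1417876_at), Fcgr3 and Fcgr4 minus that of Fcgr2b, set to 0 at the C57BL/6 steady state mean. At steady state it was −0.03, 0.21 and 0.01 in NOD and 0.00, 0.01, −0.05 and 0.04 in C57BL/6. With PBS it was 2.16, 2.40, 1.75 and 2.48 in NOD, against 1.31, 1.19, 0.77 and 1.14 in C57BL/6. With LPS it was 0.30, 0.82, 0.47 and 0.46 in NOD, against 0.50, 0.34 and 0.75 in C57BL/6. The balance thus leaned to the activating side in PBS culture in both strains, with every NOD array above every C57BL/6 array. For PBS culture against steady state, Fcgr2b itself differed by −1.79 in NOD and −1.05 in C57BL/6, which raises the balance. Fcgr1 differed by 1.30 and 1.05 and Fcgr4 by 1.66 and 1.13, in the same strain order. Fcgr3 went the other way, at −1.92 and −2.02, so Fcgr3 alone minus Fcgr2b gave −0.13 in NOD and −0.97 in C57BL/6. The lean thus holds the lower Fcgr2b, while the activating receptors moved in opposite directions. For the balance itself, the strains overlapped at steady state and with LPS. The strain difference was 1.09 with PBS, against SDs of 0.33 in NOD and 0.23 in C57BL/6 (n = 4 each), and 0.06 at steady state and −0.02 with LPS. LPS over PBS gave −1.68 in NOD and −0.57 in C57BL/6, with every LPS array below every PBS array in both strains.

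The near-zero balance difference at steady state was made of unlike parts. With single receptors it was 0.40 for Fcgr1, 0.54 for Fcgr3 and −0.75 for Fcgr4, because Fcgr4 was lower in NOD by more than Fcgr2b was. With PBS the same 3 values were 1.38, 1.39 and 0.50, all toward the activating side in NOD. With LPS they were 0.07, 0.42 and −0.54. The Fcgr1 part rests on the brighter probe set. With the mean over all probe sets of each gene, which takes in 1436625_at and the dim Fcgr2b set, the strain difference of the balance was −0.40 at steady state, 0.40 with PBS and −0.52 with LPS.

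**Figure D3:**
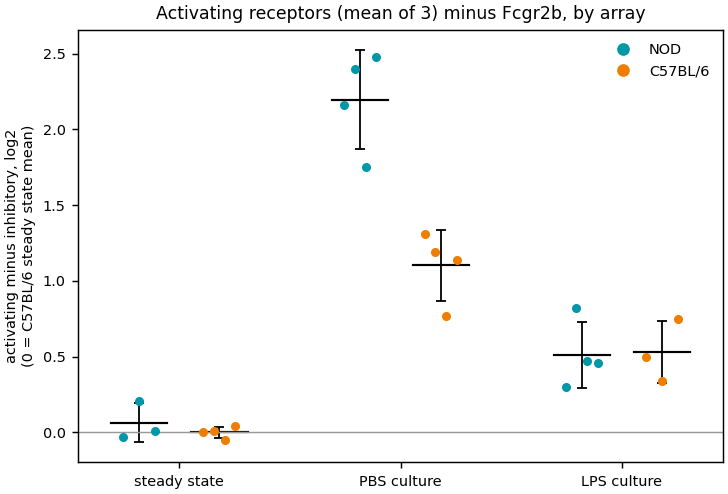
Mean log2 value of the 3 activating receptors minus that of Fcgr2b on each array, with the mean (line) and SD (bar) of NOD (left in each pair) and C57BL/6 (right), where 0 is the C57BL/6 steady state mean. NOD PBS arrays lie at 1.75 to 2.48 and C57BL/6 PBS arrays at 0.77 to 1.31, while the strains overlap at steady state and with LPS.

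The receptors and the adaptor did not vary as 1 group over the 22 arrays, which share strain, condition and normalization. Fcgr1 (1417876_at) and Fcer1g correlated at r = 0.934, Fcgr1 and Fcgr4 at r = 0.763 and Fcgr1 and Fcgr3 at r = −0.953. Fcgr2b correlated with Fcgr3 at r = 0.649 and with Fcgr1 by the same set at r = −0.675. The second Fcgr1 set, 1436625_at, gave other values. It correlated with Fcer1g at r = −0.013, with Fcgr4 at r = 0.741 and with Fcgr3 at r = −0.278. With Fcgr2b it gave r = 0.200, and with 1417876_at itself r = 0.184. Among 18193 genes by their brightest probe sets, those most like Fcgr2b over the 22 arrays were Pilrb1 (r = 0.923), Ezh2 (r = 0.904) and Cks2 (r = 0.890). Those most like Fcgr1 were Tmem140 (r = 0.994), Slfn9 (r = 0.992) and Mitd1 (r = 0.991), and those most like Fcgr3 were Mrc1 (r = 0.980), Hepacam2 (r = 0.979) and Rhbdf1 (r = 0.977). For Fcgr4 they were Ifi213 (r = 0.958), P2rx7 (r = 0.946) and Axl (r = 0.944), and for Fcer1g Psmb8 (r = 0.981), Golph3l (r = 0.973) and Psma5 (r = 0.972). Pilrb1 averaged 9.34 in NOD PBS and 10.03 in C57BL/6 PBS arrays, against 10.78 in NOD LPS and 10.84 in C57BL/6 LPS arrays. Its strain means were thus apart with PBS and close with LPS, as for Fcgr2b. At steady state it averaged 11.21 in NOD and 12.19 in C57BL/6, a wider gap than with PBS, unlike Fcgr2b.

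The wider Fc receptor pathway was taken as 82 listed genes, of which 70 were measured by a probe set that names them alone. At steady state 11 of the 70 were lower and 3 higher in NOD, where 8.35% of all genes were lower and 6.87% higher. Over the 70 genes the median log2 difference was −0.05, and over all genes 0.03. Among the activating signalling genes 4 of 18 were lower and 0 higher, led by Vav3, a guanine nucleotide exchange factor, at 10.73 ± 0.28 in NOD (SD, n = 3) and 11.79 ± 0.12 in C57BL/6 (SD, n = 4), a log2 difference of −1.07 (limma adjusted p = 0.000491). Of the inhibitory signalling genes 1 of 15 was lower, Lair1, an inhibitory collagen receptor, by −0.91 (adjusted p = 0.000632). Of the receptors and adaptors related to the gamma chain 4 of 12 were lower and 1 higher. Ncr1, an activating receptor of NK cells and innate lymphoid cells, was lower by −1.46 (adjusted p = 1.38e-05), and Clec4n, which encodes dectin-2, was higher by 0.85 (adjusted p = 0.00142). Beside Ncr1, 9 of 11 NK cell or lymphoid cell markers, Ncr1 among them, were lower in NOD, with a mean of 8.50 to 8.76 in NOD and 9.33 to 9.60 in C57BL/6, and their part in the result was not tested. Among regulators of Fc receptor transcription Cebpa was higher by 0.49 (adjusted p = 0.00548) and Tgfbr1 lower by −0.73 (adjusted p = 0.0161), and among other Fc receptors 1 of 11 was higher and 1 lower. These 6 named calls held with each of the 7 arrays left out. Of 3 probe sets each, 2 passed as lower for Vav3 and 1 for Tgfbr1. The count of 14 was 8 without NOD steady state replicate 4 and 9 without C57BL/6 steady state replicate 5.

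With PBS, 7 of the 70 were lower and 4 higher in NOD, where 5.28% of all genes were lower and 5.43% higher (median −0.03, and 0.04 over all genes). Vav3 (−0.96, limma adjusted p = 0.000969) and Ncr1 (−1.55, adjusted p = 0.00033) were again lower, the second beside 6 of 11 NK cell or lymphoid cell markers lower with PBS and with LPS. Of 3 Vav3 probe sets 1 passed. Pirb, an inhibitory receptor for MHC class I, was lower as well, at 11.92 ± 0.17 in NOD and 12.80 ± 0.13 in C57BL/6 (SD, n = 4 each), by −0.88 (adjusted p = 0.00116). Lair1 was higher in NOD here, by 0.62 (adjusted p = 0.0291). Ms4a2, the beta chain of the IgE receptor, also passed, but its probe set lay below the lower quartile on 21 of 22 arrays, so no size is read from it. Fcrla, a B cell Fc receptor-like gene, was lower by −0.80 (adjusted p = 0.0287). With the replicate number as a block the count was 17 rather than 11.

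With LPS, 12 of the 70 were lower and 4 higher in NOD, where 5.43% of all genes were lower and 5.21% higher (median −0.02, and 0.01 over all genes). Vav3 (−1.07, limma adjusted p = 0.000814), Pirb (−1.04, adjusted p = 0.000625), Ncr1 (−1.38, adjusted p = 0.00156) and Fcrla (−1.31, adjusted p = 0.00626) were lower. Ptpn6, the phosphatase SHP-1, was lower by −0.68 (adjusted p = 0.0104), and Gp6, a collagen receptor that signals through the gamma chain, at 6.32 ± 0.26 in NOD (SD, n = 4) and 7.48 ± 0.24 in C57BL/6 (SD, n = 3), by −1.16 (adjusted p = 0.00279). The Gp6 probe set lay below the lower quartile on 11 of 22 arrays, and its NOD LPS mean is at that quartile, so the difference has no exact size. Tgfbr1 was higher in NOD by 0.60 (adjusted p = 0.0172). Of 3 probe sets each, 1 passed as lower for Vav3 and 2 as higher for Tgfbr1. The count of 16 was 10 without NOD LPS replicate 3 and 10 without NOD LPS replicate 4.

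**Figure D4:**
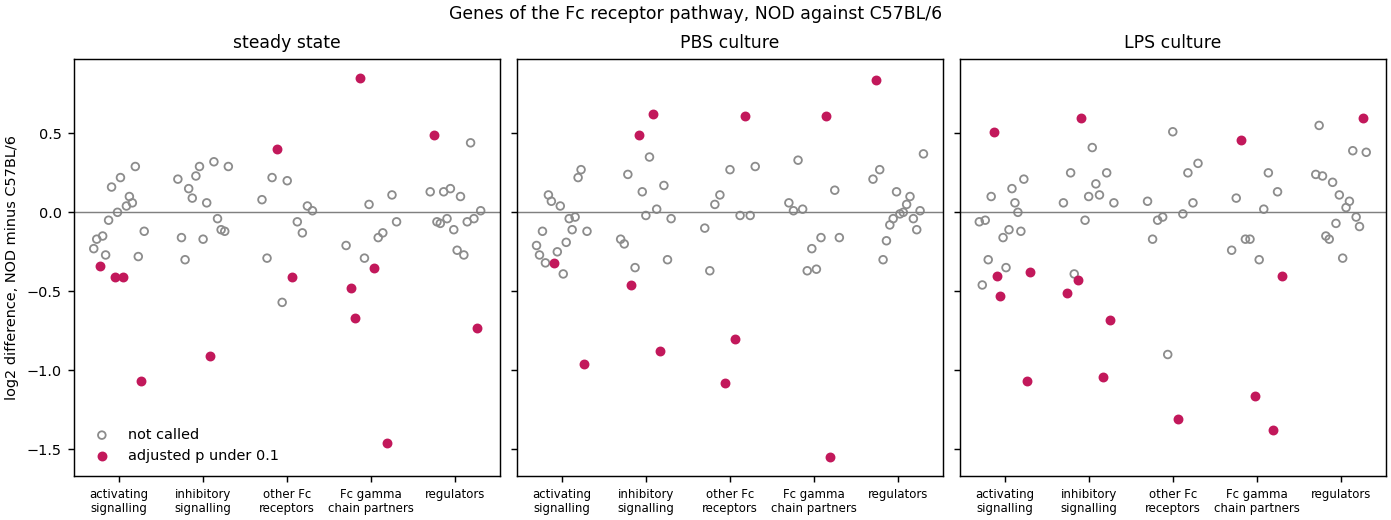
Log2 difference between NOD and C57BL/6 for each measured gene of the 5 pathway lists at steady state, with PBS and with LPS, by brightest probe set (filled points passed limma at an adjusted p under 0.1). The lowest points are Ncr1 at −1.46, −1.55 and −1.38, and most genes of each list lie within the open points around 0.

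LPS changed few pathway genes. In NOD 9 of the 70 fell and 3 rose with LPS over PBS, where 2.46% of all genes fell and 1.93% rose (median −0.07, and 0.00 over all genes). Among the inhibitory genes 4 of 15 fell, with Lair1 at 8.36 ± 0.18 with LPS and 9.88 ± 0.19 with PBS (SD, n = 4 each), a log2 difference of −1.52 (limma adjusted p = 0.000789), and Cd300a, an inhibitory receptor for phospholipids, at −0.78 (adjusted p = 0.00895). Cebpa, a myeloid transcription factor, fell by 1.58 (adjusted p = 0.00815) and Fgr, a Src family kinase, by 0.61 (adjusted p = 0.0299). Of 2 Fgr probe sets 1 passed. Clec4e, which encodes mincle, rose by 0.55 (adjusted p = 0.0386), a call lost without NOD PBS replicate 4 (adjusted p = 0.125). The count of 12 was 6 without NOD PBS replicate 4, 6 without NOD LPS replicate 3 and 7 without NOD LPS replicate 4.

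In C57BL/6, 3 of the 70 fell and 2 rose, where 0.868% of all genes fell and 0.945% rose (median −0.08, and 0.02 over all genes). Lair1 fell by 1.07 (limma adjusted p = 0.0387), Cebpa by 1.30 (adjusted p = 0.0545) and Tgfbr1 by 0.67 (adjusted p = 0.0466), and Gp6, by the same dim probe set, rose by 0.86 (adjusted p = 0.045). Of 3 Tgfbr1 probe sets 1 passed. The other rise was Pik3cg, by 0.68 (adjusted p = 0.0724, and 0.106 with the replicate block), which passed by 1 of 2 probe sets. Each of these 5 calls was lost without at least 3 of the 7 arrays, and the count lay between 0 and 4, with 0 without C57BL/6 PBS replicate 1, 3 without C57BL/6 PBS replicate 3, and 1 without C57BL/6 PBS replicate 4 or any 1 of the 3 LPS arrays.

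Whether the LPS response differed between the strains was tested by the interaction over the 15 cultured arrays. None of the 70 pathway genes passed it with limma, in any of the 8 other settings or with any array left out (0 of 70), and 4 of the 70 had an unadjusted p under 0.05. Of all genes by brightest probe set, 0.0165% passed with a higher and 0.00550% with a lower response in NOD. The Fcgr2b values above stand beside that count as a description.

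Culture itself moved most genes of the array, and most of the pathway with them. The methods describe the lysed and the cultured cells as shares of the sorted cells, and no label says which arrays share a sort. PBS culture against steady state raised 28 and lowered 30 of the 70 genes in NOD, where 41.6% of all genes rose and 30.0% fell (median −0.03, and 0.16 over all genes). In C57BL/6 it raised 31 and lowered 28, where 44.6% rose and 32.3% fell (median 0.09, and 0.17 over all genes). Fcgrt, the neonatal Fc receptor that spares IgG from degradation, fell by 3.61 in NOD (limma adjusted p = 1.08e-09) and by 3.33 in C57BL/6 (adjusted p = 6.72e-09). Fcrls, an Fc receptor-like gene, fell too, with log2 differences of −3.84 in NOD (adjusted p = 4.32e-09) and −3.88 in C57BL/6 (adjusted p = 3.62e-10). The cytosolic Fc receptor gene Trim21 rose by 1.83 in NOD (adjusted p = 5.56e-07) and by 1.55 in C57BL/6 (adjusted p = 1.49e-07). Clec4e rose most of the list, by 6.09 in NOD (adjusted p = 2.53e-10) and by 5.09 in C57BL/6 (adjusted p = 6.87e-10), and its partner Clec4d rose by 3.32 in NOD (adjusted p = 1.53e-09) and by 2.83 in C57BL/6 (adjusted p = 3.95e-09). Dok2, an inhibitory adaptor, had log2 differences of −2.70 in NOD (adjusted p = 1.26e-08) and −2.96 in C57BL/6 (adjusted p = 6.34e-10). Ifngr1, a chain of the interferon gamma receptor, fell by 2.41 in NOD (adjusted p = 1.1e-08) and by 2.18 in C57BL/6 (adjusted p = 7.86e-09). These genes and the Fc receptors above moved in culture beside a lower macrophage signal, with 9 of 15 markers lower and 2 higher in NOD and 11 of 15 lower and 1 higher in C57BL/6, and beside lower acinar transcripts, which averaged 12.73 to 13.78 in NOD and 13.17 to 13.65 in C57BL/6 steady state arrays and 8.63 to 12.44 in NOD and 8.07 to 12.00 in C57BL/6 PBS arrays. Their part in these results was not tested.

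The response to culture differed between the strains for 8 of the 70 pathway genes, 4 with a higher and 4 with a lower response in NOD, where 4.91% and 2.89% of all genes did. Lair1 fell less in NOD, at −0.74 in NOD against −2.28 in C57BL/6, a difference of 1.54 (limma adjusted p = 0.000163). Pirb had a response of −0.35 in NOD and 0.49 in C57BL/6, a difference of −0.84 (adjusted p = 0.00311). With the replicate number as a block the Pirb call was lost (adjusted p = 0.327), the Lair1 call stood (adjusted p = 0.0953) and the count was 1 rather than 8. That fit keeps only the 2 replicate numbers that both conditions share in a strain. The effect of the block and that of fewer arrays cannot be told apart. Without NOD steady state replicate 4 the count was 5.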

How the data were processed

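RNA of sorted pancreatic CD8α- DCs was hybridised to Affymetrix whole-genome mouse arrays (Mouse430_2), 1 pool per array. Values were deposited by the authors as log2 expression per probe set after RMA background correction, quantile normalization and summary; the version was not given in the sources used here. RMA forces equal distributions on the arrays, so a shift of all genes cannot be seen, and log2 differences are relative. No read depth applies to arrays, and their number limits the precision. Replicates were pools by their labels.

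The table had 45101 probe sets; without its 64 AFFX controls, 45037 were tested. The platform annotation named 1 gene for 34945 probe sets, several for 932 and none for 9160, and 99.4% of the first matched RefSeq by Entrez identifier. A gene was read by the probe set with the highest mean over the 22 arrays that names it alone. No 2 arrays were identical, and no column was unused.

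Differences were estimated by limma 3.58.1 (lmFit, eBayes; R 4.3.3) on only the arrays of the groups compared, after tests on simulated data, with Benjamini-Hochberg adjustment over all 45037 probe sets and a threshold of 0.1, the 10% false discovery level of the methods, whose permutation program was not run. SEs are moderated SEs from that fit. The receptors, pathway lists and marker lists were chosen with earlier results of these data known. Named pathway genes are taken from up to 3 per list and comparison with the largest difference past the threshold. Genes most like a receptor are the 3 with the highest r. Alternatives were a threshold of 0.05, 1 fit of 22 arrays, median centring, leaving out the dimmer 50% of probe sets, an intensity trend with robust spread, array weights, averaging the probe sets of a gene, the replicate number as a block and leaving out each array.

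Same-numbered arrays deviated together from their group means, with r = 0.109 to 0.433 at steady state, 0.137 to 0.32 with PBS and 0.114 to 0.345 with LPS between strains. For LPS over PBS r was 0.241 to 0.487 in NOD and 0.259 to 0.423 in C57BL/6. By these values, and not by a label, the numbers could mark pairs there. The SEs and adjusted p-values in the text still come from fits without pairs, except where the replicate block is named. For culture only 2 numbers were shared, with r = 0.0996 and 0.277 for NOD, against −0.0328 and 0.177 for C57BL/6, so they were not taken as pairs. The replicate block keeps only arrays whose number occurs in both conditions, so for culture it rests on fewer arrays.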

Additional observations from a re-analysis of the deposited data

Results flagged for a closer look

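NOD LPS replicate 2 stood apart from its group for Fcgr2b by the brightest probe set, at 12.68, with the other 3 arrays at 13.08 to 13.15. C57BL/6 PBS replicate 4 stood apart for the dim Fcgr2b probe set, at 3.41, with the others at 3.26 to 3.27, a gap on a level below the lower quartile of the array. These are 2 of 44 groups of 4 arrays examined, and chance alone gives about 5% of groups.

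The response to PBS culture differed between NOD and C57BL/6 for 8 pathway genes by the interaction in limma. Lair1 gave a difference of 1.54, with −0.74 in NOD and −2.28 in C57BL/6 (adjusted p = 0.000163). Pirb gave −0.84, with −0.35 in NOD and 0.49 in C57BL/6 (adjusted p = 0.00311), so its estimates had opposite signs. Ms4a2 gave 0.74 (adjusted p = 0.00502), on a probe set below the lower quartile of 21 of 22 arrays, so no size or order is read from it. Clec4e gave 1.00, with 6.09 in NOD and 5.09 in C57BL/6 (adjusted p = 0.0372). Clec4n gave −0.83, with 0.76 in NOD and 1.60 in C57BL/6 (adjusted p = 0.0348), and Ncf1 −0.48, with −1.11 in NOD and −0.63 in C57BL/6 (adjusted p = 0.0435). Pik3r1 gave −0.61, with −0.67 in NOD and −0.06 in C57BL/6 (adjusted p = 0.0578), and Tgfbr1 0.75, with −1.15 in NOD and −1.90 in C57BL/6 (adjusted p = 0.0783). By probe set, 2 of 4 passed for Pik3r1 and 1 of 3 for Tgfbr1. With the replicate number as a block, which keeps fewer arrays, Lair1 alone passed (adjusted p = 0.0953).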

How the results depend on the processing

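The count of pathway genes past the threshold at steady state, 14, was 9 at an adjusted p under 0.05 and 36 with array weights. With PBS the 11 became 18 in 1 fit of 22 arrays, 18 with an intensity trend and robust spread, 18 with probe sets averaged per gene and 17 with the replicate block. Between strains with LPS the 16 became 10 at 0.05. For LPS over PBS in C57BL/6 the 5 became 3 at 0.05, 10 in 1 fit of 22 arrays and 8 with the trend. For the culture response between strains the 8 became 1 with the replicate block, which keeps fewer arrays. Of the other calls named in the text, the replicate block ended 1, Pik3cg. Leaving out 1 array gave 8 to 20 at steady state, 8 to 10 with PBS, 10 to 13 with LPS, 6 to 12 for LPS over PBS in NOD, 0 to 4 in C57BL/6, 54 to 58 for culture in NOD, 54 to 59 in C57BL/6, 0 to 0 for the LPS response between strains and 5 to 9 for the culture response between strains.

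The balance depended on the receptors and probe sets used. At steady state NOD minus C57BL/6, 0.06, became −0.40 with the mean over probe sets, 0.40 with Fcgr1 alone, 0.54 with Fcgr3, −0.75 with Fcgr4, 0.34 with Fcgr2b by 1435476_a_at and −0.38 by the dim 1447622_at. With PBS, 1.09 became 0.40, 1.38, 1.39, 0.50 with the first 4 of these and −0.29 by 1447622_at. With LPS, −0.02 became −0.52 with the mean over probe sets, 0.42 with Fcgr3, −0.54 with Fcgr4 and −0.26 by 1451941_a_at. LPS over PBS in NOD, −1.68, became −1.98 with Fcgr1, −1.18 with Fcgr3, −1.98 by 1435476_a_at and −0.09 by 1447622_at, and in C57BL/6, −0.57, it became −0.22 with Fcgr3, −0.83 with Fcgr4 and −0.28 by 1447622_at. Culture in NOD, 2.13, became 1.82 with the mean, 3.08 with Fcgr1, −0.13 with Fcgr3, 3.44 with Fcgr4, 2.56 by 1435476_a_at and 0.08 by 1447622_at. Culture in C57BL/6, 1.10, became 2.10 with Fcgr1, −0.97 with Fcgr3, 2.18 with Fcgr4, 1.28 by 1451941_a_at, 1.77 by 1435476_a_at and 0.00 by 1447622_at. The LPS response between strains, −1.11, became −1.40 by 1451941_a_at and 0.19 by 1447622_at, and the culture response, 1.03, became 0.80 with the mean, 1.26 with Fcgr4, 0.79 by 1435476_a_at and 0.08 by 1447622_at. Leaving out 1 array gave −0.01 to 0.11 at steady state, 0.98 to 1.24 with PBS, −0.12 to 0.09 with LPS, −1.83 to −1.59 for LPS in NOD, −0.68 to −0.48 in C57BL/6, 2.04 to 2.28 for culture in NOD, 1.03 to 1.21 in C57BL/6, −1.26 to −1.0 for the LPS response between strains and 0.92 to 1.18 for the culture response.

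Fcgr2b by 1447622_at, 0.26 for culture in NOD, became −1.51 with the mean over its probe sets, which is led by the bright sets. Lcp2, 0.51 between strains with LPS by its brightest set, became −1.15 with the mean over its 2 probe sets (limma adjusted p = 0.000905). These sets thus disagree on the direction, and why was not tested. By its brightest set Lcp2 is counted among the pathway genes higher in NOD with LPS. Over the receptor probe sets, 1392 values kept direction and size, 48 moved and 1 turned. Over named pathway genes 1218 kept their call, 148 lost it and 1 turned. Probe sets below the lower quartile of an array give no order of levels.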
